A study of Homo sapiens with 121 samples.

Results

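The comparison is between single human embryonic stem cells (hESCs) with medium telomeres and those with short telomeres, 40 of the 121 cells of the series. They were taken by their group labels, which gave 25 medium and 15 short telomere cells. All were WA26 cells, an established hESC line, grown undifferentiated in E8 medium on Matrigel with no treatment named, and the labels name no culture, passage or batch for a single cell. The groups had been set by the T/R ratio of each cell, a qPCR of telomere repeats against Alu repeats in the genomic DNA left after the mRNA of the same cell had been captured. The other 81 cells, with long telomeres, served here to choose the genes tested.

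Telomeres are the repeat ends of chromosomes, covered by the shelterin proteins and lengthened by telomerase, and hESCs keep telomerase active. Pluripotent cells rest on a network around POU5F1, SOX2 and NANOG, divide quickly and rely strongly on glycolysis. In single-cell RNA-seq, a transcript of a cell may escape reverse transcription, so that a gene is listed at 0 in a cell that holds it. The number of genes detected in a cell therefore bears on every mean over cells.

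Expression is given as TPM, a relative abundance in which counts are divided by gene length and by the total of the cell. Read numbers cannot be had from TPM, the depth of single cells is not used here, and intervals below cover the number of cells alone. Because no culture is named, each group counted as 1 sample, and no p-value or standard error was computed. Differences are medium minus short means of log2(TPM + 1), a scale on which low TPM gives too small a change, and they are read against the SD over cells. Beside them stands the percentage of medium-short pairs of cells in which the medium telomere cell was higher, with ties shared equally, and a gene was called detected in a cell above TPM 1.

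Medium telomere cells held more detected genes than short telomere cells. They had 7980 ± 2070 (SD, 25 cells), from 4189 to 10481 with a median of 8626. Short telomere cells had 5784 ± 2355 (SD, 15 cells), from 2030 to 10045 with a median of 5620. The difference of 2196 genes was within the SD of the short telomere cells and larger than that of the medium telomere cells, and the groups overlapped over most of their range. Of the medium telomere cells 11 had 8000 or fewer detected genes, and of the short telomere cells 12 did. These gene-poor cells had 5886 ± 1044 (SD, 11 cells) and 4933 ± 1719 (SD, 12 cells) detected genes. The 4 cells with the fewest detected genes, 2030 to 3481, all had short telomeres. Without these 4 the 8 other gene-poor short telomere cells had on average 104 more detected genes than the 11 gene-poor medium telomere cells.

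Several short telomere cells stood apart from the rest. Over all genes, the median Pearson correlation of a cell with the other 39 was 0.654 to 0.791 in the medium group and 0.318 to 0.776 in the short group. The lowest value was that of short telomere cell 6, whose highest correlation with any other cell was 0.557. The 3 short telomere cells with more than 8000 detected genes correlated with the 14 such medium telomere cells at a median of 0.839, and these medium telomere cells correlated with each other at 0.855. Both groups carried markers of hESCs, as POU5F1, L1TD1 and LIN28A were detected in all 40 cells. The other hESC markers read were not detected in some short telomere cells. SOX2, EPCAM and PODXL were detected in 12 of 15, NANOG in 11, and TDGF1 and DNMT3B in 13. In medium telomere cells SOX2 was detected in 23 of 25, PODXL in 24, and NANOG, EPCAM, TDGF1 and DNMT3B in 25. Among markers of other cell types, SOX17, FOXA2, EOMES, CDX2, COL3A1 and DCN were listed at 0 in all 40 cells. Summed over 11 endoderm and mesendoderm markers, TPM was 0 to 43.0 in medium and 0 to 104 in short telomere cells. The sums over 8 mesoderm markers were 0 to 41.4 and 0 to 33.4, those over 9 fibroblast markers 0.2 to 453.2 and 0 to 223, and those over 8 neuroectoderm markers 9.05 to 419 and 0.61 to 160. In these lists 5 of 11, 3 of 8, 4 of 9 and 1 of 8 markers were listed at 0 throughout. The 11 trophoblast and amnion markers summed to 47.0 to 3250 TPM (median 941) in medium and 9.07 to 9179 (median 936) in short telomere cells, with 3 of 11 at 0 throughout, and this list holds the keratins KRT8 and KRT18.

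**Figure D1:**
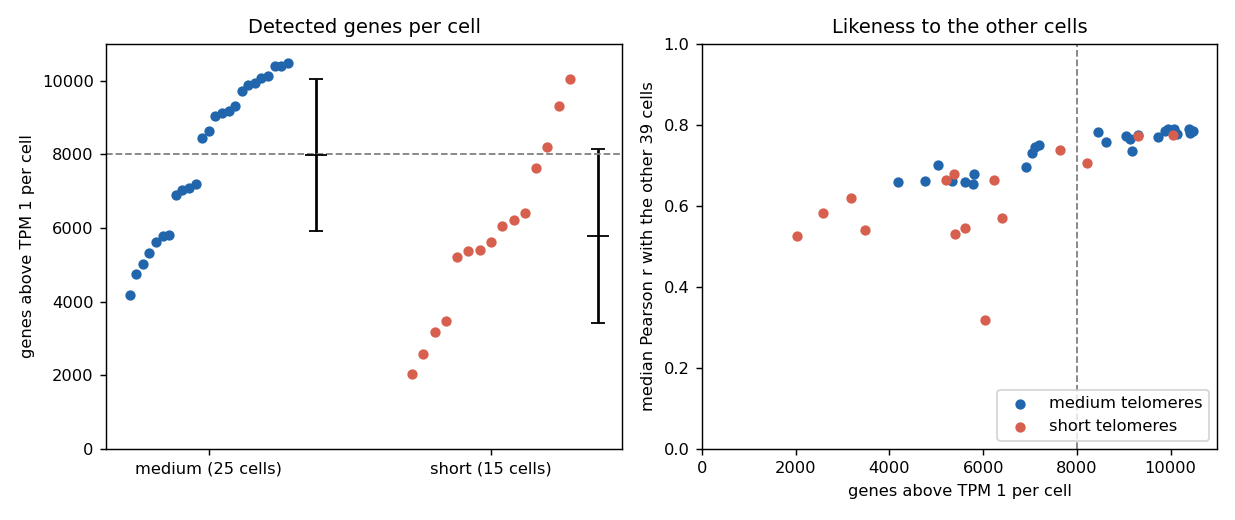
Left, genes above TPM 1 in each medium (25) and short (15) telomere cell, with group mean ± SD to the right of the points; right, the median Pearson correlation of each cell with the other 39 over all genes against its detected genes. The dashed lines mark 8000 detected genes, which 3 short telomere cells passed, and the cell lowest on the right, at 0.318, is short telomere cell 6.

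Across the transcriptome most genes were higher in medium telomere cells. Of 6190 genes that averaged TPM 10 or more in the long telomere cells, 5709 (92.2%) had a positive difference, and the median difference was 1.25. A difference of at least 1 in favour of medium telomere cells was reached by 3794 genes (61.3%) and one in favour of short telomere cells by 59 (0.953%). The difference exceeded the SD over cells of both groups in 406 genes for the medium and in 0 genes for the short group. The typical SD of a gene over cells, the median over genes, was 1.92 in medium and 2.41 in short telomere cells.

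Genes were typically detected in a larger share of medium than of short telomere cells. The median difference was smaller when only cells with detection were compared. The median gene was detected in 84% of medium and 60% of short telomere cells. Of the tested genes, 1144 were detected in every medium and 507 in every short telomere cell, and 461 in all 40. Among the cells in which a gene was detected, the median difference over 6154 genes was 0.19. That value leaves out cells without detection, and TPM shares a fixed total among the genes of a cell, so it cannot separate presence from level. The median log2(TPM + 1) of the tested genes detected in a cell averaged 5.31 in medium and 5.38 in short telomere cells. Without the 6 libraries named below it averaged 5.33 and 5.90. When the mean TPM of the groups was compared instead, which gives weight to the cells with the highest values, the median log2 ratio was 0.42, and 1583 genes were higher by at least 1 in medium and 538 in short telomere cells. With a linear regression on the number of detected genes the median difference was 0.45 and the 2 counts were 1547 and 267. Scaling cells to each other by the median ratio of the 772 genes that were above 0 throughout brought the median difference to 0.84, so that gene groups below are read against the median of all tested genes.

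The difference depended on the abundance of a gene. Genes with a mean TPM of 10 to 30 in long telomere cells had a median difference of 1.06 (2972 genes). It was 1.60 between 30 and 100 (1856 genes), 1.65 between 100 and 300 (804 genes), 1.12 between 300 and 1000 (373 genes) and 0.68 from 1000 on (185 genes). Genes from 300 on had a median detection of 100% of cells in both groups.

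Among gene-poor cells the shift in favour of medium telomere cells remained. The median difference over the 11 medium and 12 short telomere cells was 0.94, with 2975 genes (48.1%) higher by at least 1 in medium and 233 (3.76%) in short telomere cells. Of the 3794 genes named in the whole comparison 2810 also passed this limit, and of the 59 higher in short telomere cells 57 did. In both comparisons 12 of the 15 short telomere cells were the same, so this overlap is no repeat in other cells. With the 4 poorest cells left out, the 11 and 8 cells with 4000 to 8000 detected genes had a median difference of 0.70. Their means of detected genes differed by 104 in favour of short telomere cells. Of the tested genes alone, however, on average 4071 were detected in these medium and 3612 in these short telomere cells. Among these 8 short telomere cells were cells 4, 6, 7, 8 and 12, described below. In these sets 2493 genes (40.3%) were higher by at least 1 in medium and 533 (8.61%) in short telomere cells.

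Among gene-rich cells no such shift was seen. The 14 medium and 3 short telomere cells with more than 8000 detected genes had a median difference of -0.02, and 3004 of 6190 genes (48.5%) were higher in medium telomere cells. A limit of 1 was passed by 784 genes (12.7%) in favour of medium and by 566 (9.14%) in favour of short telomere cells. With 3 cells on one side, these values rest on few cells. Telomere group and number of detected genes cannot be told apart in the whole set, and how much of the shift belonged to the number of detected genes was tested no further than by these subsets and the regression above.

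**Figure D2:**
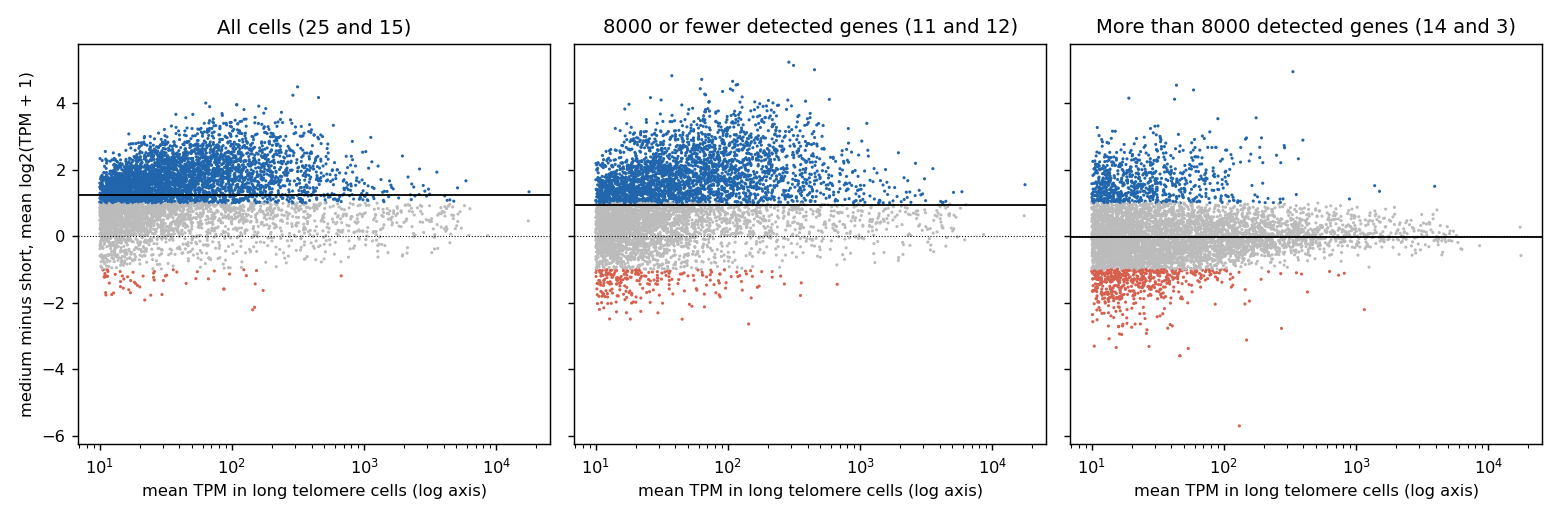
Medium minus short difference of mean log2(TPM + 1) for each of 6190 genes against the mean TPM in long telomere cells (log axis), in all cells, in gene-poor and in gene-rich cells. Blue and red points passed 1 in favour of medium or short telomere cells, and the solid line, the median gene, stands at 1.25, 0.94 and -0.02.

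The 12 genes with the largest differences in favour of medium telomere cells all code for proteins. POLR1D, a subunit shared by RNA polymerases I and III, led with a difference of 4.49. It had a TPM of 18.5 to 685 (median 265) in medium and of 0 to 461 (median 2.31) in short telomere cells. It was detected in 25 of 25 medium telomere cells (exact 95% interval 86.3 to 100%) and in 9 of 15 short ones (32.3 to 83.7%). Some short telomere cells, among them the 3 with the most detected genes, reached the level of the medium group, and most others were near 0.

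DPM1, the catalytic subunit of the enzyme that makes the mannose donor of protein glycosylation, differed by 4.24, with medians of 285 and 10.2 TPM. CCT8, a subunit of the chaperonin that folds actin and tubulin, differed by 4.17, with medians of 476 and 5.42 TPM. FANCL, the ubiquitin ligase of the Fanconi anaemia pathway of DNA crosslink repair, had the highest share of pairs of the 12. Its TPM was 0.54 to 392 (median 82.9) in medium and 0 to 42.5 (median 0) in short telomere cells, a difference of 4.01, and the medium telomere cell was higher in 92.0% of pairs. FANCL was detected in 24 of 25 (exact 95% interval 79.6 to 99.9%) and 6 of 15 cells (16.3 to 67.7%), so that no short telomere cell reached the median of the medium group.

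The other 8 were ANAPC13 (3.96), a subunit of the anaphase-promoting complex, LSM10 (3.95) of the U7 particle that processes histone mRNA, the adaptor protein SDCBP (3.91), MRPL24 (3.90) of the mitochondrial ribosome, the zinc finger protein CDCA7 (3.84), CHCHD3 (3.81) of the mitochondrial cristae junctions, the thioesterase LYPLA1 (3.73) and the RNA-binding protein HNRNPH3 (3.70). In all 12 genes the difference was larger than the SD over cells of either group. MRPL24 was detected in 21 of 25 medium and 3 of 15 short telomere cells. In gene-poor cells the leading genes were DPM1 (5.24), POLR1D (5.14), CCT8 (5.01), the splicing regulator RBM6 (4.83), FANCL (4.72), LSM10 (4.66), the Mediator subunit MED28 (4.56) and IMP3 (4.55), a nucleolar protein of ribosome assembly. RBM6 was detected in 24 of 25 medium and 4 of 15 short telomere cells.

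Among cells with 4000 to 8000 detected genes the differences were 5.15 for POLR1D, 4.28 for FANCL and 4.61 for RBM6. All these cells were among those by which the genes were picked, so the values are no repeat in other cells. In gene-rich cells the differences were close to 0 for POLR1D (-0.07), DPM1 (-0.22) and CCT8 (-0.36), while FANCL (0.87) and MRPL24 (1.19) stayed positive there. By the ratio of group mean TPM, FANCL differed by 3.24, RBM6 by 2.86, MRPL24 by 2.63 and POLR1D by 1.63 on the log2 scale.

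**Figure D3:**
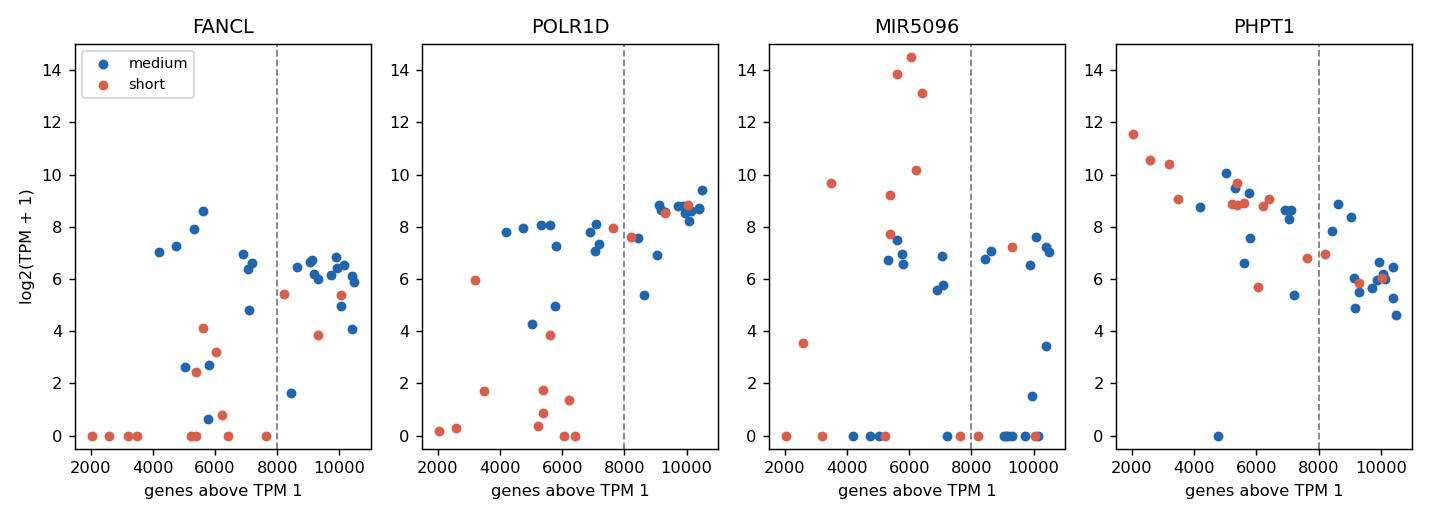
log2(TPM + 1) of 4 genes against the number of detected genes in each of 25 medium (blue) and 15 short (red) telomere cells, with a dashed line at 8000 genes. FANCL and POLR1D were high in most medium telomere cells on both sides of the line, MIR5096 was above 13 in 3 short telomere cells (6, 8 and 12), and PHPT1 was highest in the cells with the fewest genes.

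The genes higher in short telomere cells held a smaller share of protein coding genes than all tested genes. Of the 59, RefSeq (assembly GRCh38.p14, matched by symbol) lists 29 (49.2%) as protein coding and 19 (32.2%) as lncRNA, whereas of all 6190 tested genes 94.2% are protein coding and 2.89% lncRNA, and of the 3794 genes higher in medium telomere cells 96.8% and 1.74%. Protein coding and lncRNA genes made up 77.7% and 14.2% of the 233 genes higher by at least 1 in short among gene-poor cells, and 80% and 10.9% of the 55 such genes without the 6 libraries named below. The 12 largest were MIR5096 (-2.21), BCYRN1 (-2.14), CCL5 (-1.92), LOC102467081 (-1.77), GNRHR2 (-1.77), EIF2B5-AS1 (-1.76), TNNT1 (-1.75), ARHGEF26-AS1 (-1.71), LOC101929147 (-1.70), LOC101929224 (-1.70), PHPT1 (-1.63) and SERF2-C15ORF63 (-1.61). In none of the 12 was the difference larger than the SD over cells of both groups. BCYRN1 is the BC200 RNA, a small cytoplasmic RNA whose 5′ part is an Alu sequence. CCL5 is a chemokine, GNRHR2 a receptor pseudogene, TNNT1 a troponin of slow muscle fibres and PHPT1 a histidine phosphatase.

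The highest values of these genes lay in few cells. MIR5096 had a TPM of 0 to 194 (median 47.4) in medium and of 0 to 23424 (median 148) in short telomere cells. The top of the short group consisted of cell 6 (23424), cell 8 (14822), cell 12 (8843) and cell 4 (1155). CCL5 had a TPM of 0 to 565 (median 10.4) in medium and of 0 to 3604 (median 26.5) in short telomere cells, with 3604 in cell 6, 1478 in cell 12, 742 in cell 8, 582 in cell 7 and 426 in cell 4. The highest medium value, 565, was that of medium telomere cell 20. Of the 59 genes 30 had the highest value of all 40 cells in short telomere cell 6. Summed over the 59 genes, TPM was 958 to 14003 (median 2605) in medium and 2567 to 91072 (median 8658) in short telomere cells.

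In 6 cells, short telomere cells 4, 6, 7, 8 and 12 and medium telomere cell 20, CCL5 and the lncRNA LINC00824 were both above TPM 100. Without these 6 libraries, a choice made after their values were seen, the difference was 0.77 for MIR5096 and 0.03 for LOC101929224, and it was -0.05 for EIF2B5-AS1. Over all tested genes the median difference was then 1.03, with 3173 genes (51.3%) higher by at least 1 in medium and 55 (0.889%) in short telomere cells. Of these 55 genes 14 were among the 59, and of the 3173 genes 2852 were among the 3794.

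Of these libraries 4 held many genes that long telomere cells hardly hold. Genes with a mean TPM below 1 in long telomere cells made up 23.1% of the genes above TPM 10 in short telomere cell 6, which were 1022 such genes. The share was 11.7% in cell 12, 9.13% in cell 8 and 8.94% in cell 7, and it was 2.97% in cell 4 and 2.50% in medium telomere cell 20. In the 25 medium telomere cells it was 0.545 to 2.50% (median 0.974%), and in the 10 short telomere cells outside the 6 libraries it was 0.576 to 2.73%. What these reads were was not tested.

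PHPT1 and SERF2-C15ORF63 followed another order of cells. PHPT1 had a TPM of 0 to 1059 (median 96.3) in medium and of 50.4 to 2987 (median 472) in short telomere cells. The highest values, 2987, 1497 and 1367, were those of short telomere cells 15, 13 and 9, which also had the fewest detected genes, while the 3 gene-rich short telomere cells had 57.4 to 124. SERF2-C15ORF63, a read-through transcript, had 304, 136 and 170 TPM in cells 13, 15 and 9. PHPT1 differed by -1.76 without the 6 libraries, by -0.62 with the regression on detected genes and by 0.02 in gene-rich cells. SNAR-B1 and SNAR-B2, near-identical small RNA genes whose reads cannot be told apart, had the same value, -1.59. It changed sign, to 0.54 with the regression on detected genes and to 2.67 in gene-rich cells.

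The 4 subsets were drawn from the cells by which the 12 genes were picked. Among these genes BCYRN1 alone was higher in short telomere cells by at least 1 in all 4. It had a TPM of 0 to 2944 (median 47.3) in medium and of 0 to 4151 (median 332) in short telomere cells, and the short telomere cell was higher in most pairs, with the medium telomere cell higher in 27.7%. The difference was -1.04 in gene-poor cells, -2.09 with 4000 to 8000 detected genes, -3.12 in gene-rich cells and -1.46 without the 6 libraries. The highest short values were 4151 in cell 12 and 2469 in cell 9. The highest medium value was 2944 in cell 20, so the range of the medium group lay within that of the short group.

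**Figure D4:**
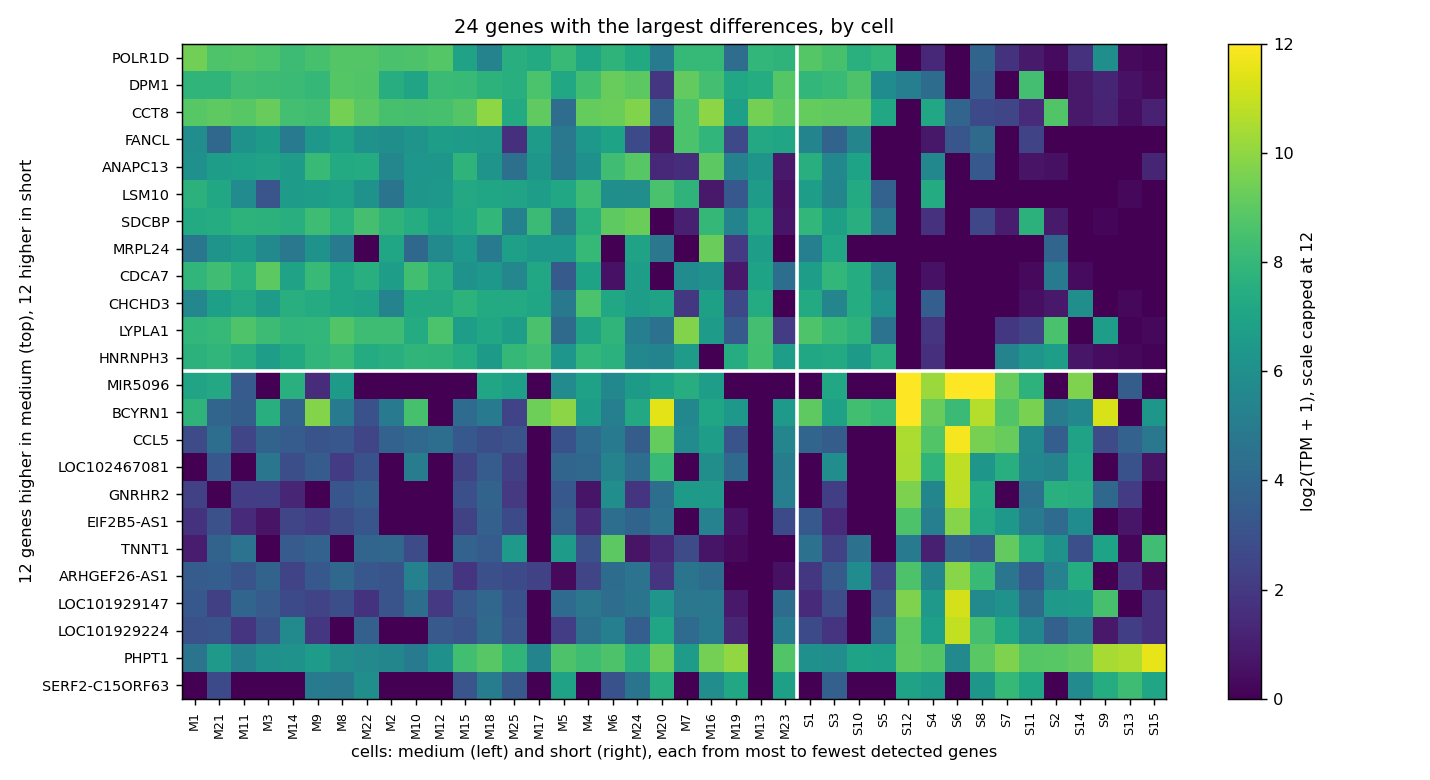
log2(TPM + 1), capped at 12, of the 12 genes highest in medium (upper rows) and the 12 highest in short telomere cells (lower rows) in 25 medium (M) and 15 short (S) telomere cells, each ordered from most to fewest detected genes. The upper rows are mostly dark in gene-poor short telomere cells from S12 on, and the lower rows are brightest in S12, S6 and S8.

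Reads from repeats such as Alu can fit many places of the genome. The methods name default settings of TopHat and HTSeq, the labels also RSEM, and which of these tools gave the TPM values is not given in the sources used here, so the values of BCYRN1 are uncertain.

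The Alu part of BCYRN1 was then searched in the longest GRCh37 transcript of each tested gene. A gene was called as having an Alu-like segment where at least 80 bases aligned with at least 75% identity on either strand. Such a segment was found in 1371 of 6089 tested genes with a transcript (22.5%), in 677 of 3760 genes higher in medium telomere cells (18.0%) and in 26 of 50 genes higher in short telomere cells (52.0%). In gene-poor cells, 96 of 220 genes higher in short telomere cells had one (43.6%). Without the 6 libraries, the share among genes higher in short telomere cells was 6 of 49 (12.2%). BCYRN1, the source of the query, matched itself and is counted in all these shares except that of genes higher in medium telomere cells. MIR5096, at 70 bases, could not reach 80 aligned bases and is counted as without a segment. It aligned to the Alu part of BCYRN1 on the opposite strand over 21 bases, of which 19 were identical. The median transcript length was 2844 bases for all tested genes and 2416.5 bases for the genes higher in short telomere cells. The search was chosen after these genes were seen and is a description, since a segment in a transcript does not show that reads came from it.

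Over all tested genes, those with an Alu-like segment had a median difference of 0.99 and the 4718 others one of 1.34. Among transcripts of 2000 to 5000 bases the values were 0.98 (708 genes) and 1.40 (2300 genes), and below 2000 bases 0.76 (124 genes) and 1.26 (1778 genes). Without the 6 libraries they were 1.00 and 1.05, and in gene-rich cells -0.07 and -0.01. The summed TPM of the tested genes with such a segment, BCYRN1 left out, was not higher in short telomere cells. It was 151885 ± 7473 (SD, 25 cells) in medium and 145577 ± 14294 (SD, 15 cells) in short telomere cells. In the 6 libraries this sum was 138649 ± 19081 (SD, 6 cells).

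Each list below is read against the 61.3% of all tested genes that were higher by at least 1 in medium and the 0.953% in short telomere cells, and a count such as 3 of 5 gives the genes of a list higher by at least 1 in medium out of those tested. Pluripotency genes were higher in medium telomere cells about as much as other genes. Of 16 core pluripotency genes 13 passed the filter on long telomere cells, 7 were higher by at least 1 in medium and 0 in short ones, and their median difference was 1.29, beside 1.25 over all tested genes. NANOG had the largest difference, 2.90. Its TPM was 3.37 to 422 (median 199) in medium and 0 to 216 (median 30.6) in short telomere cells, with detection in 25 of 25 (exact 95% interval 86.3 to 100%) and 11 of 15 cells (44.9 to 92.2%). It was larger than the SD over cells of either group and stood at 1.78 with 4000 to 8000 detected genes and at 0.61 in gene-rich cells. TDGF1, the Nodal coreceptor, followed at 2.40, ZFP42 at 2.01, PRDM14 at 1.51, DNMT3B at 1.46, SALL4 at 1.38 and DPPA2 at 1.29.

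The most abundant regulators differed little. POU5F1 had a TPM of 75.8 to 1585 (median 989) in medium and of 125 to 2135 (median 567) in short telomere cells, a difference of 0.49. The ranges overlapped between 125 and 1585 TPM, and the medium telomere cell was higher in 71.5% of pairs. LIN28A differed by 0.35, L1TD1 by 0.21, DPPA4 by 0.85, SOX2 by 0.94 and LIN28B by 0.98. UTF1 (-0.69), FOXD3 (0.10) and TERT, the catalytic subunit of telomerase (0.06), did not pass the filter, and TERT was detected in 4 of 25 and 1 of 15 cells. In gene-poor cells the median of the 13 genes was 0.70, below the 0.94 of all tested genes, and in gene-rich cells it was 0.05.

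The larger PluriNet, a published network of proteins of pluripotent cells, went the same way. Of 299 symbols 296 were measured and 255 tested, of which 173 (67.8%, against 61.3% of all tested genes) were higher by at least 1 in medium and 0 in short ones, with a median of 1.38. CDK1 (3.51) and ANXA2 (3.42) followed POLR1D, while the abundant NPM1 differed by 1.08 and PTMA by 0.28. The mean log2(TPM + 1) over the 255 genes was 5.66 ± 0.67 (SD, 25 cells) in medium and 4.24 ± 1.33 (SD, 15 cells) in short telomere cells, and 6.11 and 6.07 in gene-rich cells. Genes associated with the naive state had a median of 1.59 (6 of 6 tested higher by at least 1 in medium), led by GDF3 (2.86) and MYCN (2.36). In gene-poor cells 2 of these 6 passed 1, with a median of 0.86, and with the regression on detected genes the median was 0.04, beside 0.45 over all tested genes. DPPA5, at 1.56 in all cells, stood at -0.84 in gene-poor cells.

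Surface and adhesion genes of hESCs had a median of 1.69, and 10 of 13 were higher by at least 1 in medium telomere cells. EPCAM, the epithelial adhesion molecule, differed by 3.01 with medians of 227 and 60.2 TPM, ITGB1 by 2.44, CD9 by 2.32 and CLDN7 by 2.20, whereas the abundant CD24 differed by 0.93. In gene-rich cells the median of this group was -0.19. Genes of the FGF pathway had a median of 1.28 (8 of 10), with the FGF response genes ETV5 (2.18) and ETV4 (2.08) ahead of DUSP6 (0.44). The Nodal and TGF-beta pathway had a median of 1.46 (3 of 5), which was -0.18 with the regression on detected genes and -0.48 in gene-rich cells, and the WNT pathway one of 1.32 (4 of 7), led by SFRP2 (2.23).

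The shelterin genes lay near the median of all genes. Of the 6 shelterin genes 4 passed the filter, with a median of 1.12, and 3 of them were higher by at least 1 in medium telomere cells. TERF1, which binds the double-stranded repeat and was the most abundant, had a TPM of 144 to 1431 (median 365) in medium and of 15.9 to 689 (median 218) in short telomere cells. It differed by 1.27 and was detected in all 40 cells, and the medium telomere cell was higher in 74.9% of pairs. Its difference was positive in every subset, with 1.43 in gene-poor, 1.40 with 4000 to 8000 detected genes, 0.83 in gene-rich cells and 0.87 without the 6 libraries. The difference was smaller than the SD of 1.60 over short telomere cells.

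TERF2IP (1.21), TINF2 (1.03) and ACD (-0.07) were detected in 6, 5 and 7 of 15 short telomere cells and in 18, 16 and 15 of 25 medium ones. ACD went to -1.26 in gene-poor cells. TERF2 (-0.30) and POT1 (1.01), with mean TPM of 8.97 and 6.51 in long telomere cells, were below the filter. By the ratio of mean TPM the median of the 4 tested shelterin genes was -0.96, and single short telomere cells held up to 831 TPM of TERF2IP and 214 of ACD.

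The telomerase and dyskerin complex had a median of 1.24 (7 of 12), with RUVBL2 (2.18), GAR1 (2.01) and RUVBL1 (1.91) ahead of the abundant NOP10 (0.15) and NHP2 (0.37). Genes of the CST complex and of replication at telomeres had a median of 1.87 (7 of 9), led by the primase subunits PRIM1 (3.01) and PRIM2 (2.08) and by the nucleases DNA2 (2.11) and FEN1 (2.00). PRIM1 had medians of 131 and 12.3 TPM in medium and short telomere cells. In gene-rich cells the medians of these lists were 0.18 and -0.22. The list of telomere maintenance genes of the study, selected from published gene sets, had a median of 1.18, with 18 of 30 tested genes higher by at least 1 in medium and 0 in short telomere cells. TPP1 (2.51), a lysosomal peptidase and not the shelterin protein of that name, and the histone acetyltransferase HAT1 (2.97) led that list.

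Genes of mismatch repair and recombination had medians above that of all genes. Mismatch repair had a median of 1.84 (4 of 5 tested genes), which was 2.18 in gene-poor cells and 1.81 with 4000 to 8000 detected genes. MSH6 differed by 3.05, with a TPM of 0.58 to 131 (median 68.2) in medium and of 0 to 56.4 (median 3.09) in short telomere cells, and the medium telomere cell was higher in 88.3% of pairs. PMS1 (2.51) and EXO1 (1.81) also passed 1. Homologous recombination had a median of 1.82 (5 of 9) with RAD50 (2.26), and end joining one of 1.32 (4 of 6). By the ratio of mean TPM the medians were 1.38 for mismatch repair and -0.09 for recombination, beside 0.42 over all tested genes. The 7 tested genes of the damage checkpoint had a median of 0.44, and 2 of them, RAD17 (1.67) and CHEK2 (1.18), passed 1, while CLSPN stood at -0.46. The median of that list fell to -0.26 with the median ratio scaling. In gene-rich cells the medians were -0.15 for mismatch repair, -0.22 for recombination, -0.02 for end joining and -0.14 for the checkpoint.

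Targets of p53 had a median of 1.31 (5 of 7), with PMAIP1 (2.30) and BAX (1.46), and apoptosis regulators one of 1.29 (5 of 8), with DIABLO (2.48). Genes of the integrated stress response stood at 1.72 (4 of 7), led by the amino acid enzymes ASNS (3.12) and PSAT1 (2.82). Immediate early genes had 1.62 (3 of 5), which was -0.03 with the regression on detected genes and -1.01 in gene-rich cells, where 3 of the 5 were higher by at least 1 in short telomere cells. Genes of the interferon response and IFITM family had 1.57 (5 of 8), with the abundant IFITM1 (0.22) and IFITM3 (0.11) near 0.

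Cell cycle genes stood near the median of all genes. G1/S and replication genes had a median of 1.26 (16 of 22) and G2/M genes one of 1.31 (16 of 24). CDK1, the kinase of mitotic entry, had a TPM of 1.06 to 580 (median 202) in medium and of 0 to 1155 (median 7.32) in short telomere cells, a difference of 3.51. CCNB2 differed by 2.89, BUB1B by 2.62, RRM1 by 2.38, CDC6 by 2.20 and PCNA by 2.05, and the abundant CKS1B by 0.83. In gene-rich cells G2/M genes had a median of -0.49 and G1/S genes one of 0.08.

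The metabolic lists ranged widely in their medians. The pentose phosphate and one-carbon list had a median of 1.78, with 11 of 12 genes higher by at least 1 in medium telomere cells, among them MTHFD2 (3.05) and PGD (2.84). The TCA cycle had 1.80 (13 of 18), led by SUCLA2 (3.20) with medians of 122 and 11.9 TPM, SUCLG2 (2.57), SDHA (2.53) and DLD (2.53). Glycolysis had 1.01 (10 of 19), with LDHA (3.05) and the lactate transporter SLC16A1 (2.52) ahead of the abundant GAPDH (0.44) and LDHB (0.35). The lowest difference in the glycolysis list was -0.395. Ferritin and antioxidant genes had 0.98 (9 of 18), with SOD2 (2.13) and GSTP1 (-0.03).

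Complex I had a median of 0.59 (13 of 38), complexes III and IV 0.67 (5 of 20) and ATP synthase 1.07 (8 of 15). These lists are abundant, with median long-cell TPM of 416, 874 and 1030. All tested genes of TPM 300 to 1000 had a median of 1.12, and those from 1000 on one of 0.68. NDUFA9 differed by 3.24, COX7A2L by 3.30 and ATP5A1 by 2.55, whereas NDUFA13 was at -0.63 and ATP5I at -0.60. With the median ratio scaling the medians of complex I, complexes III and IV and ATP synthase were -0.09, -0.08 and 0.42. The median over all tested genes was then 0.84. With the regression on detected genes they were 0.67, 0.62 and 0.89, beside 0.45 over all tested genes. Their place beside all tested genes thus changed with the setting. Genes listed as mitochondrial-like nuclear transcripts had a median of -0.35, with 1 of 8 higher by at least 1 in each direction. These were MIR4461 (1.34) and MTRNR2L6 (-1.43). Whether the reads of this list came from nuclear copies or from mitochondrial RNA was not tested. Summed over MIR4461 and MIR6723, TPM was 5677 to 47623 (median 23049) in medium and 341 to 204840 (median 20946) in short telomere cells. The means of these sums went the other way, 23547 in medium and 41926 in short telomere cells. Short telomere cells 12 (204840) and 8 (158259) were highest, which leaves less of the TPM total for their other genes.

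Over all cells the chaperonin had the highest median of the lists with at least 3 tested genes. With other settings other lists led, as mismatch repair did in gene-poor cells (2.18, against 2.04 for the chaperonin). All 8 subunits of the CCT chaperonin were tested, 7 were higher by at least 1 in medium telomere cells, and the median was 1.95. After CCT8 came CCT4 (2.41), TCP1 (2.03), CCT7 (1.98) and CCT2 (1.93). CCT2 had a TPM of 181 to 696 (median 416) in medium and of 0.39 to 1798 (median 199) in short telomere cells. In gene-poor cells the median was 2.04 and all 8 passed 1, in gene-rich cells it was -0.12, and by the ratio of mean TPM it was 0.52. The proteasome had 1.31 (21 of 31), led by PSMA3 (2.97) with medians of 1038 and 164 TPM, PSMD6 (2.59) and PSMA1 (2.50), while PSMA7 (0.14) and PSMB6 (0.25) were near 0. Its median in gene-rich cells was 0.37. Heat shock and chaperone genes had 1.32 (7 of 12), from HSPA9 (2.58) to HSPE1 (0.29).

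Ribosomal protein genes had a smaller median than all tested genes. Of 77 tested, 15 (19.5%) were higher by at least 1 in medium telomere cells, against 61.3% of all tested genes, and their median was 0.68. It was 0.62 in gene-poor cells and 0.01 in gene-rich cells, and it changed sign, to -0.08, with the median ratio scaling. Ribosomal protein genes are abundant, with a median long-cell TPM of 2749, and the 185 tested genes of TPM 1000 or more likewise had a median of 0.68, with 27.0% higher by at least 1 in medium telomere cells. RPS4X (2.02) and RPL11 (1.93) differed most, RPS27 stood at 0.02, and the lowest difference of the list was -0.385. Mitochondrial ribosomal protein genes had a median of 1.29, with 47 of 77 higher by at least 1, led by MRPL24, MRPL40 (3.69) and MRPL48 (3.49). Translation factors had 1.21 (13 of 22) with EIF3H (3.15), RNA polymerase subunits 1.48 (10 of 16) and the spliceosome 0.84 (11 of 26) with LSM2 (3.08). Nucleolar genes of ribosome biogenesis had 1.19 (10 of 16), led by PES1 (2.93), which was 4.17 in gene-poor cells. UTP11L, at -1.14, was the 1 gene of this list higher by at least 1 in short telomere cells and is named after its value was seen.

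Chromatin genes were spread widely. Polycomb repressive complex 2 had a median of 1.30 (4 of 8), with MTF2 (3.14), RBBP7 (2.32) and PHF19 (2.19) ahead of EZH2, the methyltransferase of the complex, at 0.88. EZH2 was -0.56 in gene-poor cells and 2.36 in gene-rich cells. Histone variants and linkers had 0.98 (4 of 8), led by H3F3A (3.12), and a median of 1.12 in gene-rich cells. DNA methylation genes had 0.80 (2 of 5) and heterochromatin genes 0.78 (3 of 10). Actin and thymosin genes had 1.33 (13 of 20), with TAGLN2 (2.88) and the very abundant TMSB4X (0.46).

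Of the markers of other cell types, 3 neuroectoderm genes passed the filter with a median of 1.19, namely OTX2 (1.61), SOX11 (1.19) and NES (0.32). The 3 tested trophoblast and amnion markers had 1.24, namely KRT8 (1.30), TFAP2C (1.24) and KRT18 (0.52), and 1 fibroblast marker, VIM, had 1.59. The endoderm, mesendoderm and mesoderm lists had 0 tested genes. A list of noncoding and read-through genes drawn from earlier results of these cells, and so not independent, had 2 of 5 members tested, BCYRN1 and SERF2-C15ORF63.

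**Figure D5:**
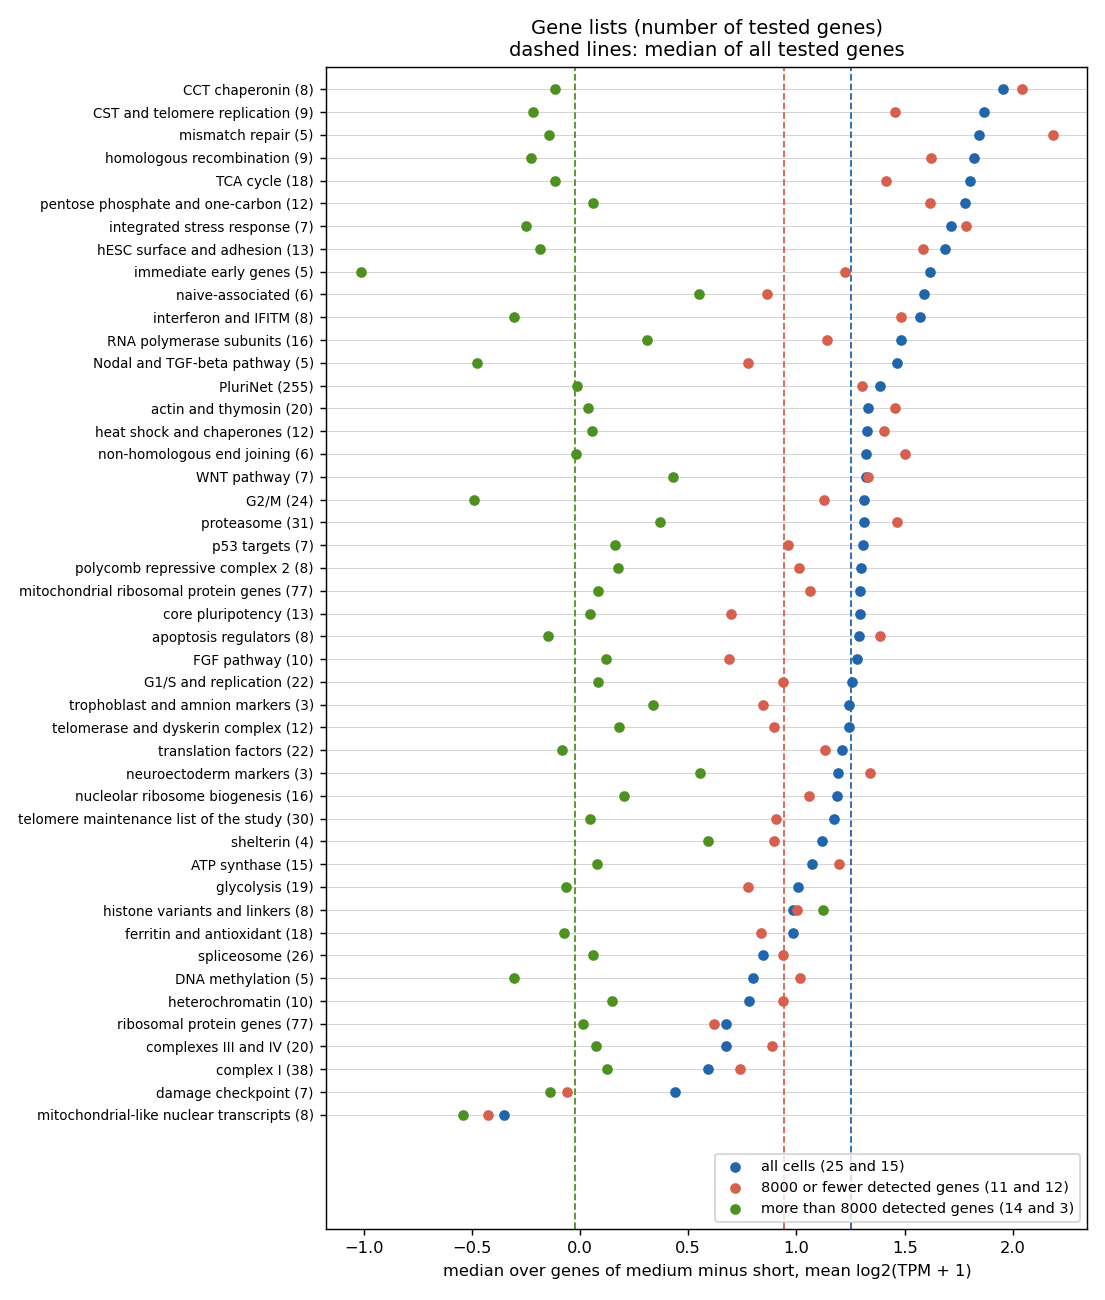
Median medium minus short difference of mean log2(TPM + 1) for each gene list with at least 3 tested genes, in all (blue), gene-poor (red) and gene-rich cells (green), with dashed lines at the median of all tested genes (1.25, 0.94 and -0.02). Most lists lie near these lines, CCT chaperonin has the highest and mitochondrial-like transcripts the lowest blue point, and the green points scatter around 0.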

How the data were processed

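Single WA26 cells were sequenced by scT&R-seq, with cDNA made by Smart-seq2 from mRNA captured on beads. The methods give single-end reads of 50 bases, alignment by TopHat to hg19 and HTSeq counting on RefGene, both with default parameters, and a size factor function, while the labels list RSEM. From the TPM table deposited by the authors 25610 complete genes were read, with totals of 979828 to 997050 for a cell. The copy read here ended within a row, which was dropped, and symbols beyond ZFR were not analysed here. TPM keeps no read numbers, so the depth of single cells and the counting error could not be taken from this table.

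Members and gene lists were chosen with earlier results of these data known. Groups came from the labels. Per gene the difference of mean log2(TPM + 1) was computed over genes averaging TPM 10 or more in long telomere cells, and no test was made because no culture is named. Named genes were the 12 largest differences each way, the 8 largest each way in gene-poor cells, the 4 largest and 2 most abundant of each list, and all core pluripotency and shelterin genes, of which not all are printed. Some results that the rule would name are not reported here. Genes outside this rule were chosen after their values were seen. Shares of cells have exact (Clopper-Pearson) 95% intervals. As alternatives, the pseudocount was set to 0.1 or 10 and detection to above TPM 0 or 10, and the others were other filters, group medians, the ratio of mean TPM, 2 scalings, a regression on detected genes, borders of 7000 and 8000 and a limit of 4000 detected genes, and leaving out each cell, and, after the values were seen, 6 libraries or 1 library.

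Gene classes came from RefSeq, in which 6159 of 6190 tested symbols matched, and transcripts from GENCODE on GRCh37, searched with blastn 2.17.0. The calculations were tested on simulated data. Python 3.11.15, numpy 2.4.6, pandas 2.3.3, scipy 1.17.1 and matplotlib 3.10.9 were used.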

Additional observations from a re-analysis of the deposited data

How the results depend on the processing

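No paired analysis was possible because the results come from no test and the cell numbers only name cells. With a pseudocount of 10, 1232 genes were higher by at least 1 in medium and 34 in short telomere cells (gene-poor cells 1313 and 73), and 3 gene lists had a median of at least 1. The ratio of mean TPM gave 1583 and 538 genes and 4 lists, and 812 genes higher in short in gene-poor cells. The regression on detected genes gave 1547 and 267 genes and 3 lists (450 higher in short in gene-poor cells), and of all calls 85.3% were then higher in medium, against 98.5% in the whole comparison and 74.6% by the ratio of mean TPM. Genes higher in short were 236 with the median ratio scaling (14 lists; 537 in gene-poor cells), 261 with the filter on medium and short telomere cells (486), and 557 with no filter (1099). They were 233 with 8000 or fewer, 373 with 7000 or fewer detected genes (23 lists) and 169 without cells under 4000 (22 lists; 533 in gene-poor cells, whose detected genes then differed by -104). With more than 8000 detected genes the counts were 784 and 566 with 1 list, 2 of the 24 named genes still differed by at least 1 in the same direction, and the median was -0.023. With more than 7000 they were 827 and 352 with 0 lists and 4 such genes. Without 6 libraries, 16 lists had a median of at least 1, against 37.

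Named genes changed sign with more than 8000 detected genes for POLR1D (-0.070), DPM1 (-0.22), CCT8 (-0.36), ANAPC13 (-0.087), LSM10 (-0.19), LYPLA1 (-0.29), MIR5096 (0.96), CCL5 (0.90), LOC102467081 (0.37), GNRHR2 (0.95), EIF2B5-AS1 (0.27), LOC101929147 (1.59), LOC101929224 (1.05), PHPT1 (0.022) and SERF2-C15ORF63 (0.92). With more than 7000 they did so for POLR1D (-0.10), CCT8 (-0.091), MIR5096 (1.71), CCL5 (1.35), LOC102467081 (0.92), GNRHR2 (1.07), EIF2B5-AS1 (0.64), TNNT1 (0.15), LOC101929147 (1.15), LOC101929224 (0.32), PHPT1 (0.10) and SERF2-C15ORF63 (1.26), and without 6 libraries for MIR5096 (0.77), CCL5 (0.0076) and LOC101929224 (0.032), where CCL5 was itself used to choose these libraries. The cause was not tested.

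Leaving out each cell in turn gave differences in detected genes of 1928 to 2500, 3516 to 4109 genes higher in medium, 45 to 79 higher in short and medians of 1.15 to 1.39. In gene-poor cells these were 689 to 1199, 2772 to 3212, 205 to 295 and 0.86 to 1.05. The depth of single cells could not be read from TPM, and the gene-rich subset holds 3 short telomere cells.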
